A study of Mus musculus with 20 samples.

Results

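Iron storage, uptake, export, mitochondrial use, haem breakdown and iron sensing were followed through 9 genes listed by symbol: Fth1, Ftl1, Tfrc, Slc11a2, Slc40a1, Slc25a37, Slc25a38, Hmox1 and Ireb2. All 9 of 9 were found among the 46078 gene IDs of the deposited table, and all 9 passed the filter for testing (an average of 1 TPM or more), as did 14176 genes in total. TPM is a transcript abundance corrected for gene length and scaled to the same sum in every library. RNA was measured by sequencing in LSK cells, the lineage-negative, cKit-positive and Sca1-positive fraction of mouse bone marrow, in which the stem cells and early progenitors of blood are found. There were 20 libraries in 5 groups of 4, each library being total RNA from a pool of 2 mice. All mice were C57Bl/6J and 3 to 4 months old. Wild-type controls (WT) had the genotype +/+;Vav-Cre. The 3 Idh groups were heterozygous for a conditional mutant allele and carried Vav-Cre as well. Their alleles were Idh1LSL-R132H/+, named Idh1R132H/+ from here on, Idh2LSL-R140Q/+, named Idh2R140Q/+, and Idh2LSL-R172K/+, named Idh2R172K/+. In such LSL alleles a stop cassette is removed by Cre, and Vav-Cre is active in blood-forming cells. The fifth group was Tet2-/-, whose genotype label names no Cre, so the WT pools differ from it in that respect too. The series compared Idh and Tet2 mutations found in leukaemia within the same progenitor fraction.

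Iron enters most cells as transferrin-bound iron through the transferrin receptor, leaves the endosome through the importer DMT1, and is then used in mitochondria, stored in ferritin or exported by ferroportin. Ferritin is a hollow shell of heavy chains, which oxidise iron, and light chains, which help to mineralise it. Iron regulatory proteins, among them the product of Ireb2, bind hairpins called iron-responsive elements (IREs) in mRNAs when iron is scarce: in a 5′ untranslated region (UTR) this blocks translation, and in the 3′ UTR of the transferrin receptor mRNA it protects the message from decay. Erythroid precursors take up iron for haem, and macrophages recycle iron from old red cells with haem oxygenase and ferroportin.

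The hairpins are a regulatory sequence known from some of these genes and are shown for that reason. GENCODE M21 transcripts of each gene (mm10) were searched on the sense strand for a C, 5 bases, the loop CAGTGN and 5 further bases able to pair with the earlier 5, with G–T pairs allowed. Of 9 genes, 4 held the element, against 294 of 21901 protein-coding genes (1.34%) searched the same way. The 9 genes were listed for their roles in iron handling, so this contrast is a description and not a test. In the 5′ UTR it occurred in 31 genes (0.142%) and in the 3′ UTR in 129 (0.589%). Sequences are DNA letters, 5′ to 3′ on the transcript, with the loop in capitals.
Fth1, 5′ UTR: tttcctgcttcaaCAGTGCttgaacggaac
Ftl1, 5′ UTR: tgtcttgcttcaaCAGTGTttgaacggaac
Slc40a1, 5′ UTR: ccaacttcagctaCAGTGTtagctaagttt
Tfrc, 3′ UTR, site 1: taattatcggaagCAGTGCcttccataatt
Tfrc, 3′ UTR, site 2: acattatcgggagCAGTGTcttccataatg
Tfrc, 3′ UTR, site 3: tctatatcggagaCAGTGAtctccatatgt
Tfrc, 3′ UTR, site 4: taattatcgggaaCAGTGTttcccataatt
The Fth1 element lies at chr19:9982731-9982760 (plus strand) and the Ftl1 element at chr7:45459779-45459808 (minus strand), and they share 27 of 30 bases. The Slc40a1 element lies at chr1:45925465-45925494 (minus strand). The 4 Tfrc elements lie on the plus strand at chr16:32631218-32631247, chr16:32631597-32631626, chr16:32631662-32631691 and chr16:32631709-32631738. The remaining 5 genes had no match to these letters, which says nothing more about them.

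Library depth, read back from the TPM, was 35.2 M to 45.0 M assigned reads (M, 1000000), and every one of the 9 genes had at least 355 reads in every pool. Some pools stood apart. The pools numbered 4 in WT and the 3 Idh groups (square symbols in the plots) had 7.55 to 8.13% of their TPM in the short noncoding gene Gm23935, Tet2-/- pool 2 (triangle) had 20.0%, and the other 15 pools had 9.57 to 13.5%. No label ties a pool number to a litter, date or batch. Sex-linked RNA differed between pools within every group. Xist ranged from 0.0969 to 26.8 TPM in WT and from 0.101 to 63.4 TPM in Tet2-/-, and Ddx3y from 0.0627 to 61.6 TPM and from 0.031 to 53.5 TPM. Sex was not a term in the fits. Counts of members called in Idh2R172K/+ and Tet2-/- are given with and without these 5 pools, with the values of the members they turn on. These pools were picked from the data, so the fit without them is not an independent check. Over all genes it raised the calls against WT from 2177 to 4641 in Idh2R172K/+ and from 999 to 4515 in Tet2-/-. The sort markers Kit (97.9 to 636 TPM across groups), Ly6a, which encodes Sca1, and Ptprc were present throughout, whereas Ly6g, a marker of mature neutrophils, stayed under 1 TPM in all 20 pools. A list of 10 neutrophil and granule genes, among them the granule genes Elane and Mpo, was abundant in sum (3742 to 5967 TPM in WT). That sum is not a measure of mature neutrophils alone. Idh2 RNA was 1.77-fold higher in Idh2R172K/+ than in WT (937 ± 62.8 against 529 ± 80.6 TPM, SD, n = 4, limma adjusted p = 2.4e-05), and was 536 ± 66.0 TPM in Idh2R140Q/+. Idh1 was 104 ± 17.5 TPM in Idh1R132H/+ and 88.7 ± 12.2 TPM in WT. Tet2 RNA was not lost in Tet2-/- (9.91 ± 2.85 against 7.50 ± 1.17 TPM); the labels do not say which exons were removed, so the gene total does not check this genotype.

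Ferritin heavy chain RNA was lower in Idh2R172K/+ LSK cells than in any other group, while light chain RNA showed no called difference from WT. In Tet2-/- cells the light chain was higher than in WT by a small amount, a call that held under 9 of 19 other ways of processing. The Idh1R132H/+ and Idh2R140Q/+ mutants showed no called change in any of the 9 genes. A gene is called here at a Benjamini-Hochberg adjusted p under 0.05 over all genes tested, from limma on log2(TPM + 1) with all 5 groups in 1 fit. Differences are on that log2 scale, each with its standard error (SE), and the added 1 understates differences of genes at low TPM.

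Against WT, 1 of the 9 genes (Fth1, lower) was called in Idh2R172K/+, where 15.4% of all genes were called. In Tet2-/-, 1 of 9 (Ftl1, higher) was called, where 7.05% of all genes were. None of 9 was called in Idh1R132H/+ (0.00705% of all genes) or in Idh2R140Q/+ (0.0% of all genes), where 229 and 407 genes had an unadjusted p under 0.05, none of the 9 among them. The groups did not overlap for 3 of 9 genes in Idh2R172K/+ (22.8% of all genes), 2 of 9 in Tet2-/- (13.6%), and 0 of 9 in Idh1R132H/+ (1.71%) and Idh2R140Q/+ (2.0%). The median difference of the 9 genes from WT was -0.33 in Idh2R172K/+ beside 0.11 for all genes, and 0.04 in Tet2-/- beside 0.02. Both shares of called genes lie near the background, so the counts themselves single out nothing. Without the 5 pools named above, 6 of 9 were called in Idh2R172K/+ (32.7% of all genes) and 2 of 9 in Tet2-/- (31.8% of all genes).

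**Figure D1:**
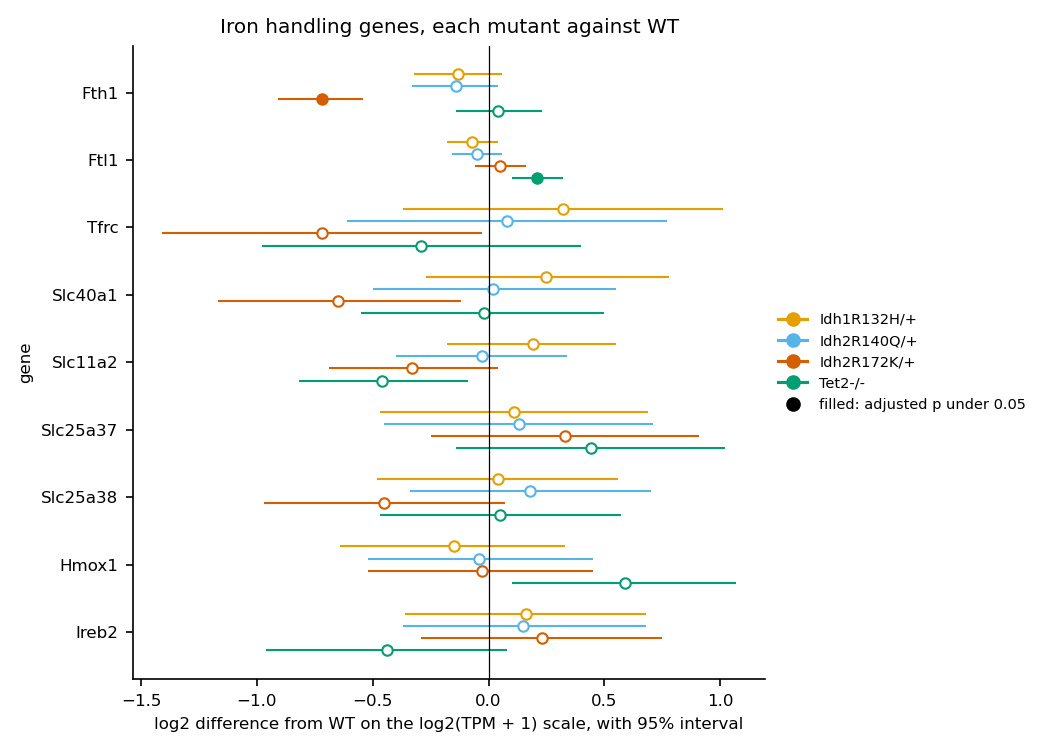
Log2 difference of each of the 9 genes from WT in the 4 mutant groups (x axis, log2(TPM + 1) scale; points are limma estimates, bars 95% intervals, n = 4 pools per group, filled points called at an adjusted p under 0.05). The 2 filled points are Fth1 in Idh2R172K/+ at -0.72 and Ftl1 in Tet2-/- at 0.21; the same 4 WT pools serve every comparison.

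Fth1 (ENSMUSG00000024661, chr19:9980598-9985098, plus strand) encodes the ferritin heavy chain and was the most abundant of the 9 genes. WT pools 1 to 4 held 4211, 4776, 4237 and 3917 TPM, and Idh2R172K/+ pools held 2739, 2673, 2756 and 2219 TPM. Every Idh2R172K/+ pool lay below every pool of the other 4 groups. Idh1R132H/+ pools held 3937, 4350, 3830 and 3562 TPM, Idh2R140Q/+ pools 4187, 4015, 3935 and 3396 TPM, and Tet2-/- pools 4148, 4897, 4155 and 4437 TPM. These 3 groups all overlapped WT. The mean fell from 4285 ± 358 TPM in WT to 2597 ± 255 TPM in Idh2R172K/+ (SD, n = 4), a log2 difference of -0.72 ± 0.09 (SE; limma adjusted p = 1.08e-05). It was called under 19 of 19 other ways of processing the data, at -0.82 to -0.65, and was -0.69 (adjusted p = 4.47e-06) without the 5 pools. By rank, Fth1 stood between place 9 and 11 among all genes in WT pools and at place 19 in each Idh2R172K/+ pool. In these bulk samples, fewer cells of a type and less RNA per cell cannot be told apart.

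Several marker lists also differed from WT in Idh2R172K/+, not all in the direction of the heavy chain. Of all genes, 15.4% were called in Idh2R172K/+ and 7.05% in Tet2-/-. The 1 of 14 macrophage and 1 of 9 neutrophil and granule genes called below do not exceed the former share. The summed level of 14 markers of committed erythroid progenitors was 2179 to 2417 TPM in WT and 903 to 1045 TPM in Idh2R172K/+, and 10 of the 14 were called lower and 2 higher. None of the 14 was at 0 in every pool. Gata1, a master erythroid transcription factor, averaged 49.0 TPM in WT and 9.45 TPM in Idh2R172K/+. Macrophage markers were also lower in sum, at 129 to 158 TPM beside 198 to 263 TPM in WT, with 1 of 14 called lower and 0 higher. The abundant members Cd68 and Csf1r weigh heavily in that sum, averaging 31.3 and 49.1 TPM beside 70.2 and 76.3 TPM in WT. C1qb averaged 17.8 TPM beside 22.7 TPM and Cd5l 4.94 TPM beside 5.97 TPM. Megakaryocyte markers summed to 1062 to 1210 TPM beside 552 to 656 TPM in WT, with 3 of 8 called higher and 2 lower. The neutrophil and granule genes summed to 2783 to 3688 TPM beside 3742 to 5967 TPM in WT, with 1 of 9 tested called lower and 0 higher. T lineage genes summed to 10.0 to 15.8 TPM beside 34.4 to 60.3 TPM, with 2 of 2 tested called lower. The rest of the 6 T lineage genes averaged under 1 TPM and were not tested. B lineage genes summed to 39.5 to 114 TPM beside 90.3 to 108 TPM in WT, with 2 of 5 tested called higher and 1 lower. In Tet2-/- the erythroid progenitor markers summed to 1793 to 2257 TPM, with 6 of 14 called lower and 1 higher, and there Fth1 differed from WT by 0.04 ± 0.09 (SE; 95% interval -0.14 to 0.23; -0.05 without the 5 pools). The part of these cells in the Fth1 difference was not tested.

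Ftl1 (ENSMUSG00000050708, chr7:45457944-45459884, minus strand) encodes the ferritin light chain. WT pools held 1147, 1147, 1109 and 1214 TPM and Idh2R172K/+ pools 1242, 1166, 1165 and 1199 TPM. These ranges overlap, and the difference was 0.05 ± 0.05 (SE) with a 95% interval of -0.06 to 0.16, which does not reach the fall of the heavy chain. Tet2-/- pools held 1320, 1444, 1273 and 1312 TPM, all above all pools of WT and of the 3 Idh groups (the highest of those was 1242 TPM). The mean in Tet2-/- was 1337 ± 74.1 TPM (SD, n = 4) against 1155 ± 43.6 TPM in WT, a difference of 0.21 ± 0.05 (SE; limma adjusted p = 0.025). This call held under 9 of 19 alternatives, among them the fit without the 5 pools (0.20, adjusted p = 0.00568). It was lost under median-of-ratios scaling (adjusted p = 0.293), in a fit of the 2 groups alone (0.174), and without WT pool 1 (0.0591), WT pool 2 (0.0502), WT pool 3 (0.0889) or Tet2-/- pool 4 (0.0529). Idh1R132H/+ pools (1068 to 1129 TPM) and Idh2R140Q/+ pools (1063 to 1168 TPM) overlapped WT.

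The balance between the chains separated Idh2R172K/+ from the rest. The ratio of Fth1 to Ftl1 TPM was 1.85 to 2.37 in Idh2R172K/+ (geometric mean 2.17) and 3.23 to 4.16 in WT (3.70). It was 3.33 to 3.85 in Idh1R132H/+, 3.03 to 3.70 in Idh2R140Q/+ and 3.14 to 3.39 in Tet2-/-. The ratio restates the Fth1 difference and is given as a description. Together both chains made up 0.544 ± 0.0339% of all TPM in WT and 0.379 ± 0.0255% in Idh2R172K/+ (SD, n = 4). The absolute ratio depends on the gene length used: the exons of Fth1 in the annotation add up to 3469 bases, whereas its protein-coding transcripts run from 333 to 1494 bases. Differences between groups do not depend on it. Ferritin pseudogenes, which could take reads from the parent genes, were low: Ftl1-ps1 reached 19.4 TPM, Ftl2-ps 13.4 TPM and Fth-ps2 6.52 TPM, while the Fthl17 genes were at 0 TPM in all 20 pools.

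**Figure D2:**
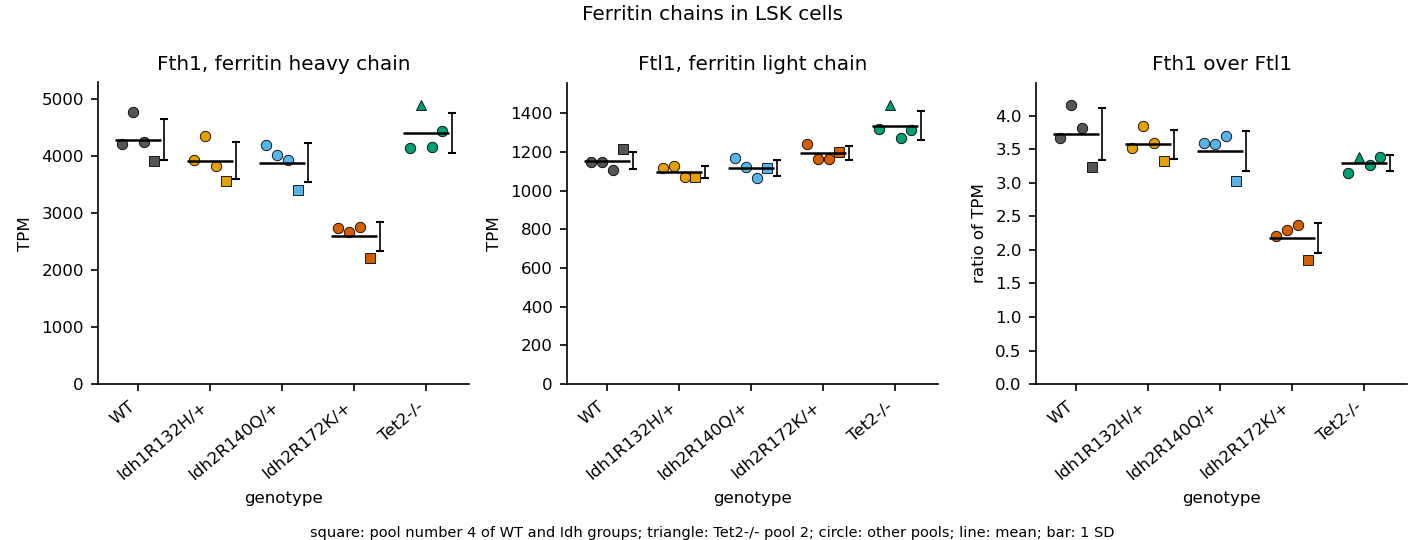
TPM of Fth1 and Ftl1 and the ratio of Fth1 to Ftl1 TPM (y axes, from 0) in each pool of the 5 groups (x axis); lines are means and bars 1 SD (n = 4). The 4 Idh2R172K/+ pools sit at 2219 to 2756 TPM of Fth1, under all 16 others, while their Ftl1 values overlap those of WT.

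Tfrc (ENSMUSG00000022797, chr16:32608920-32632794, plus strand) encodes the transferrin receptor, the main entry route of iron. WT pools held 34.0, 26.0, 35.5 and 64.1 TPM, Idh1R132H/+ pools 46.9, 33.8, 47.0 and 66.6 TPM, Idh2R140Q/+ pools 28.1, 28.7, 47.7 and 64.8 TPM, Idh2R172K/+ pools 17.1, 20.9, 18.3 and 39.0 TPM, and Tet2-/- pools 35.4, 19.0, 39.7 and 33.3 TPM. Pool 4 was the highest in WT and in each Idh group. Pools 1 to 3 of Idh2R172K/+ lay below all WT pools, but its pool 4 did not. The difference of Idh2R172K/+ from WT was -0.72 ± 0.33 (SE) and was not called (limma adjusted p = 0.155), with a 95% interval of -1.41 to -0.03. It was called in 6 of 19 alternatives, among them the fit without the 5 pools (-0.72, adjusted p = 0.0122). In Tet2-/- the difference from WT was -0.29 ± 0.33 (SE), and 0.19 without the 5 pools; neither was called.

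Slc11a2 (ENSMUSG00000023030, chr15:100387898-100425072, minus strand) encodes DMT1, which carries iron out of endosomes. Its level was 14.0 to 18.4 TPM in WT, 11.0 to 13.7 TPM in Idh2R172K/+ and 6.92 to 14.4 TPM in Tet2-/-. The highest Idh2R172K/+ pool lay just under the lowest WT pool, and the difference of -0.33 ± 0.17 (SE) was not called (adjusted p = 0.231; -0.30, 0.0658, without the 5 pools), while 4 of 19 alternatives called it. In Tet2-/- it was -0.46 ± 0.17 (SE; adjusted p = 0.107) and -0.18 without the 5 pools, where the lowest value, that of pool 2, is left out. Of 19 alternatives, 5 called it, at adjusted p from 0.0149 to 0.0463.

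Slc40a1 (ENSMUSG00000025993, chr1:45908068-45926523, minus strand) encodes ferroportin, the iron exporter. WT pools held 10.8, 9.24, 11.0 and 9.65 TPM and Idh2R172K/+ pools 8.11, 5.75, 7.34 and 4.00 TPM. The groups did not overlap, and the mean was 6.30 ± 1.82 TPM in Idh2R172K/+ and 10.2 ± 0.87 TPM in WT (SD, n = 4). The difference of -0.65 ± 0.25 (SE) was not called (limma adjusted p = 0.0907), while 3 of 19 alternatives called it, at adjusted p from 0.0153 to 0.0448, the latter without the 5 pools (-0.50). In Tet2-/- the difference from WT was -0.02 ± 0.25 (SE; 0.17 without the 5 pools). Idh1R132H/+ pools spread from 8.63 to 16.6 TPM, Idh2R140Q/+ pools from 7.08 to 16.0 TPM and Tet2-/- pools from 5.98 to 12.2 TPM, all overlapping WT.

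Slc25a37 (ENSMUSG00000034248, chr14:69241848-69285112, minus strand) encodes mitoferrin, which imports iron into mitochondria. Its level was 9.92 to 12.4 TPM in WT pools 1 to 3 and 19.0 TPM in pool 4. Pool 4 was likewise highest in each Idh group, at 21.3 TPM in Idh1R132H/+, 24.0 TPM in Idh2R140Q/+ and 26.1 TPM in Idh2R172K/+. Tet2-/- pools ranged from 14.6 to 19.0 TPM. The difference from WT was 0.33 ± 0.28 (SE) in Idh2R172K/+ and 0.44 ± 0.28 in Tet2-/-, neither called (adjusted p = 0.467 and 0.31). Without the 5 pools they were 0.30 (adjusted p = 0.0409) and 0.71 (adjusted p = 0.000316), both called. For Idh2R172K/+ that fit was the 1 of 19 alternatives with a call, and for Tet2-/- it was 1 of 2.

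Slc25a38 (ENSMUSG00000032519, chr9:120110374-120124504, plus strand) encodes the mitochondrial carrier that supplies glycine for haem synthesis. It held 15.0 to 28.6 TPM in WT and 10.6 to 20.9 TPM in Idh2R172K/+, with pool 4 highest in both groups. The difference of -0.45 ± 0.25 (SE) was not called (adjusted p = 0.247), and without the 5 pools the same -0.45 had an adjusted p of 0.0167. Levels in Idh1R132H/+ (15.4 to 31.1 TPM), Idh2R140Q/+ (16.9 to 32.5 TPM) and Tet2-/- (17.4 to 22.9 TPM) overlapped WT.

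Ireb2 (ENSMUSG00000032293, chr9:54863789-54912530, plus strand) encodes iron regulatory protein 2, which binds the hairpins shown above. WT pools ranged from 30.4 to 47.4 TPM, Idh2R172K/+ pools from 37.7 to 53.2 TPM and Tet2-/- pools from 12.7 to 35.7 TPM, the lowest being pool 2. Pool 4 was the highest in WT and in each Idh group. The difference from WT was 0.23 ± 0.25 (SE) in Idh2R172K/+ (adjusted p = 0.579; 0.26, adjusted p = 0.0289, without the 5 pools) and -0.44 ± 0.25 in Tet2-/- (adjusted p = 0.26; 0.02 without them). For Idh2R172K/+ the fit without the 5 pools was the 1 of 19 alternatives with a call.

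**Figure D3:**
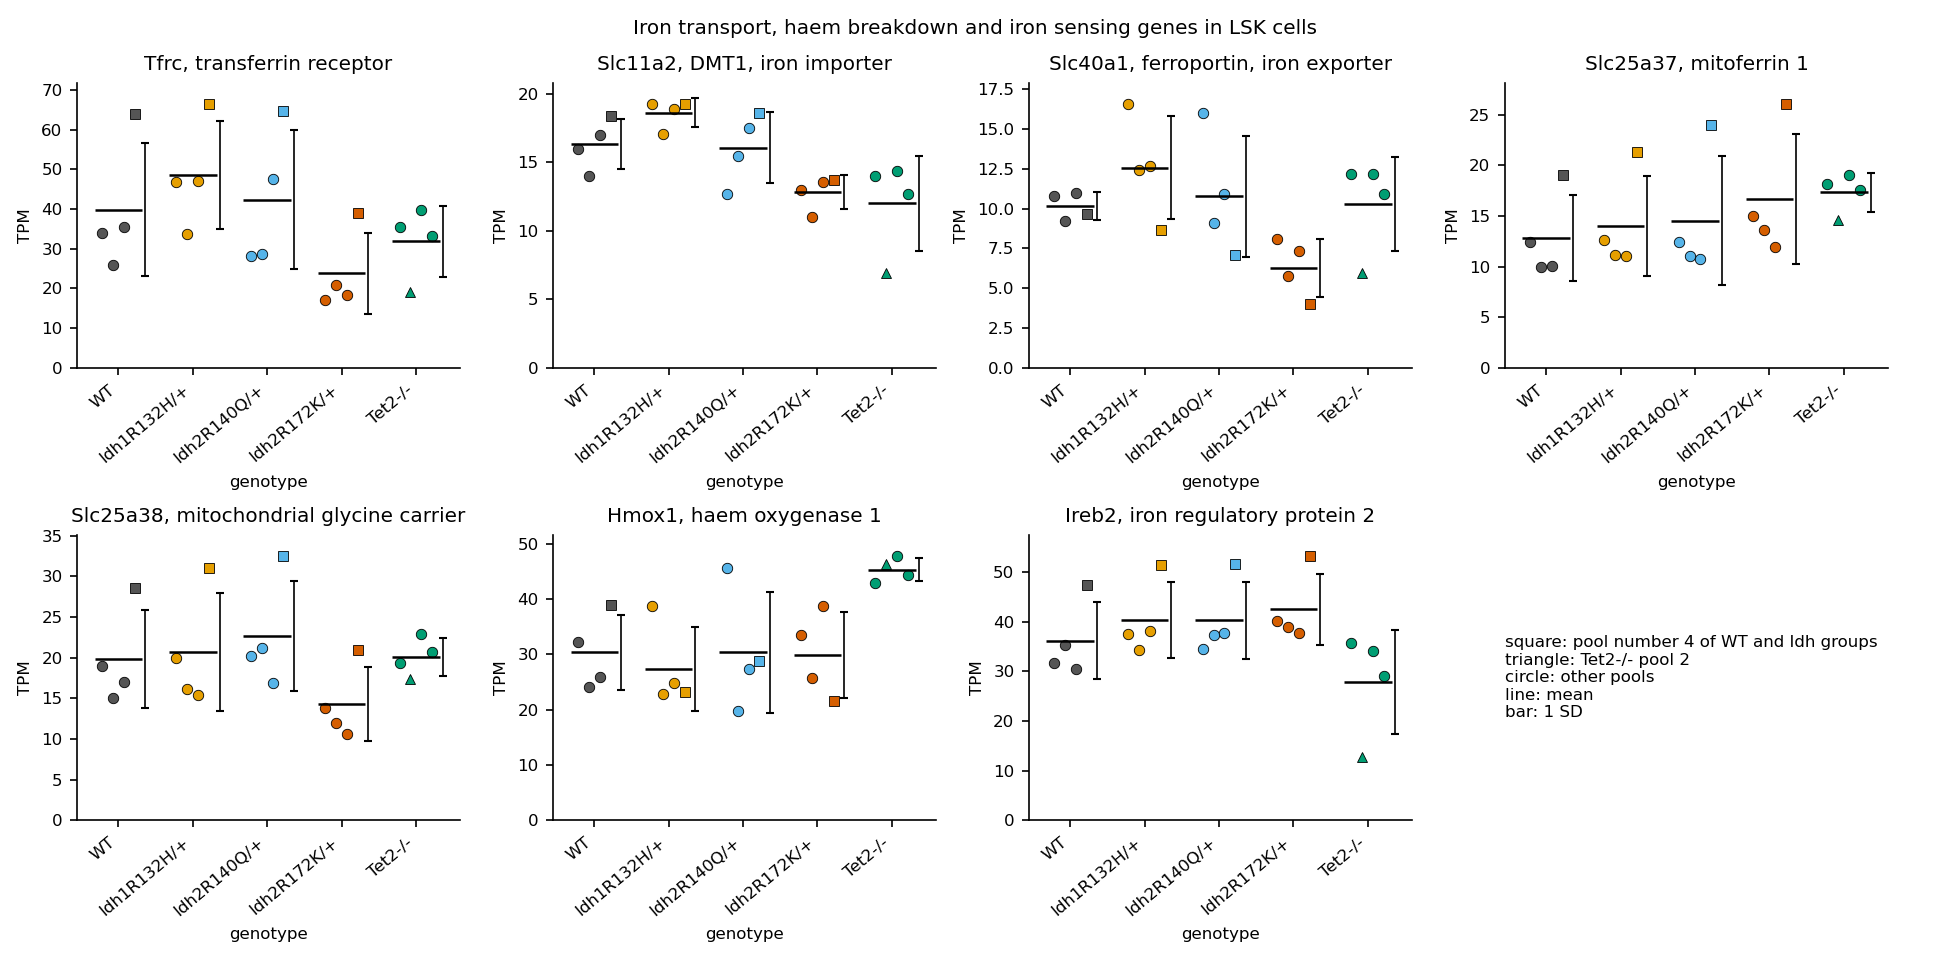
TPM (y axes, from 0) of Tfrc, Slc11a2, Slc40a1, Slc25a37, Slc25a38, Hmox1 and Ireb2 in each pool of the 5 groups (x axis); lines are means and bars 1 SD (n = 4), squares are pools numbered 4 and the triangle is Tet2-/- pool 2. The squares are the highest points of their groups for Tfrc, Slc25a37, Slc25a38 and Ireb2 in WT and the 3 Idh groups.

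Hmox1 (ENSMUSG00000005413, chr8:75093621-75100589, plus strand) encodes haem oxygenase 1, which opens haem and frees its iron. Tet2-/- pools held 42.9, 46.4, 47.8 and 44.4 TPM and WT pools 32.3, 24.2, 26.0 and 39.0 TPM. The groups did not overlap, with means of 45.4 ± 2.17 and 30.4 ± 6.72 TPM (SD, n = 4), and the difference of 0.59 ± 0.23 (SE) was not called (limma adjusted p = 0.115). It was called in 1 of 19 alternatives, with library weights (adjusted p = 0.0302), and was 0.70 (adjusted p = 0.0577) without the 5 pools. Idh1R132H/+ pools held 38.8, 22.8, 24.8 and 23.2 TPM, Idh2R140Q/+ pools 45.7, 19.7, 27.3 and 28.9 TPM, and Idh2R172K/+ pools 33.6, 25.7, 38.7 and 21.5 TPM. Each of these groups overlapped WT, and single pools reached the Tet2-/- range in Idh2R140Q/+ only.

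Macrophage markers were higher in sum beside Hmox1 in Tet2-/- but were not matched to it in every group. The summed TPM of 14 of them was 278 to 294 in Tet2-/-, above the 198 to 263 of WT. Of the 14, 3 were called higher and 0 lower, beside 7.05% of all genes called either way. The complement gene C1qb averaged 49.5 ± 9.61 TPM in Tet2-/- and 22.7 ± 4.12 TPM in WT (SD, n = 4). Cd68 and Csf1r, more abundant members of the list in WT, were not higher in Tet2-/-. Cd68 averaged 69.4 ± 3.31 TPM beside 70.2 ± 2.57 TPM in WT, and Csf1r 54.6 ± 7.99 TPM beside 76.3 ± 20.9 TPM. The sum therefore mixes genes that moved differently. Within Idh1R132H/+ and Idh2R140Q/+, pool 1 was the highest for Hmox1 (38.8 and 45.7 TPM), for Slc40a1 (16.6 and 16.0 TPM) and for the macrophage sum (303 and 288 TPM). In Idh2R172K/+ the sum was below WT (129 to 158 TPM) while Hmox1 averaged 29.9 ± 7.74 TPM beside 30.4 ± 6.72 TPM in WT (-0.03 ± 0.23, SE). In Tet2-/- the sum was above WT while Slc40a1 averaged 10.3 ± 2.97 TPM beside 10.2 ± 0.87 TPM. None of the 14 markers was at 0 in every pool. The part of these cells in either gene was not tested.

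**Figure D4:**
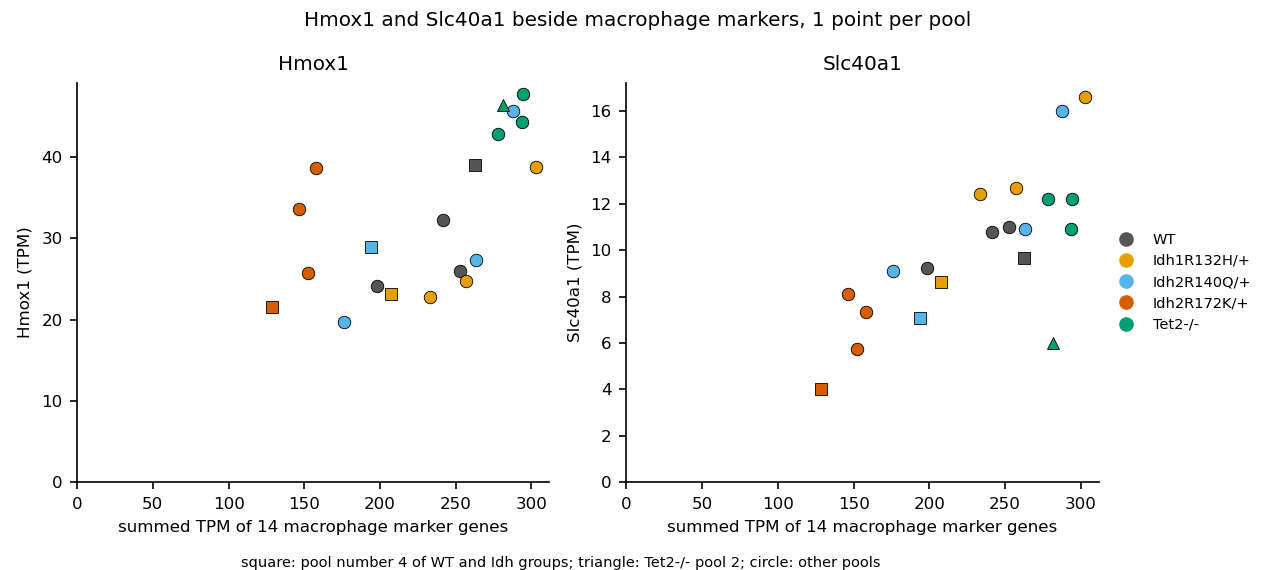
TPM of Hmox1 and Slc40a1 (y axes) against the summed TPM of 14 macrophage marker genes (x axes), 1 point per pool, coloured by group. The 4 Tet2-/- pools lie at 278 to 294 on the x axis and 42.9 to 47.8 TPM of Hmox1, and the 4 Idh2R172K/+ pools at 129 to 158, with 4.00 to 8.11 TPM of Slc40a1.

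Over the 20 pools, the genes most like each of 4 members were sought among 8285 named protein-coding genes averaging 10 TPM or more, by Pearson correlation of log2(TPM + 1). The pools share library handling and group differences, so these values are descriptive. Hmox1 was most like C1qb (0.87), Fcna (0.87), C1qc (0.85), C1qa (0.77) and Chchd7 (0.76), and all 3 C1q genes are on the macrophage list. Slc40a1 was most like Axl (0.86), a macrophage receptor on the same list, then Tm2d2 (0.84), Prcp (0.84), Ebp (0.82) and Tubb4b (0.82). Fth1 was most like Ramp1 (0.96), Fcer1g, Tmem107, H2-DMa and Calhm6 (0.95 each). Fcer1g, the shared signalling chain of Fc receptors, fell to 68.1 TPM in Idh2R172K/+ from 200.3 TPM in WT. Tfrc was most like Sapcd2 (0.93), Recql4, Htra2, Trabd and Srrt (0.92 each). Among the 9 genes, Fth1 and Ftl1 correlated at 0.15, Tfrc and Slc25a38 at 0.79, Tfrc and Slc11a2 at 0.76, and Ftl1 and Slc11a2 at -0.78.

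Between mutants, heavy chain RNA again set Idh2R172K/+ apart. The comparisons below share samples with those above and with each other. Against Idh2R140Q/+, the other allele of the same gene, 1 of 9 genes was called (10.5% of all genes), Fth1 at -0.58 ± 0.09 (SE; limma adjusted p = 0.000145). Pool numbers were taken to pair the samples here by the rule given under processing, with the limit stated there. The pool number was fitted as a block over all 20 libraries, also in groups that the rule did not pair, such as Tet2-/-. With that block 4 of 9 were called (14.6% of all genes): Fth1, Tfrc (-0.80, adjusted p = 0.0114), Slc40a1 (-0.67, 0.0166) and Slc25a38 (-0.63, 0.00696), all lower. In the fit without the 5 pools 4 of 9 were called as well (20.3% of all genes), Fth1 at -0.57 (adjusted p = 2.71e-05). Tfrc was at -0.82 there, Slc40a1 at -0.66 and Slc25a38 at -0.64.

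Against Idh1R132H/+, 3 of 9 genes were called lower in Idh2R172K/+ (13.5% of all genes). Fth1 differed by -0.60 ± 0.09 (SE; adjusted p = 0.000103), Tfrc by -1.04 ± 0.33 (adjusted p = 0.043) and Slc40a1 by -0.90 ± 0.25 (adjusted p = 0.0211). The Tfrc ranges overlapped through the pools numbered 4 and 2 (39.0 TPM in Idh2R172K/+ and 33.8 TPM in Idh1R132H/+). The Tfrc call was lost when any of Idh1R132H/+ pools 1, 3 and 4 or Idh2R172K/+ pools 1, 2 and 3 was left out (adjusted p = 0.0861 to 0.119). The Slc40a1 call was lost without Idh1R132H/+ pool 1 or 3 or Idh2R172K/+ pool 2 or 4 (0.0528 to 0.0825). With the pool number as a block, 5 of 9 were called (19.5% of all genes), Slc11a2 (-0.51, adjusted p = 0.0174) and Slc25a38 (-0.49, 0.0258) being added. Leaving out the 5 pools, 5 of 9 were called (26.9% of all genes), with Fth1 at -0.57, Tfrc at -1.13 and Slc40a1 at -0.89. Slc11a2 at -0.53 and Slc25a38 at -0.47 were also called in that fit. Idh2R140Q/+ against Idh1R132H/+ gave 0 of 9 (0.00705% of all genes; 274 genes had an unadjusted p under 0.05, none of the 9 among them).

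Against Idh2R172K/+, 2 of 9 genes were called higher in Tet2-/- (26.8% of all genes). Fth1 differed by 0.77 ± 0.09 (SE; adjusted p = 6.48e-06) and Ftl1 by 0.16 ± 0.05 (adjusted p = 0.0298). The Ftl1 call was lost without Idh2R172K/+ pool 2, 3 or 4 or Tet2-/- pool 2 (adjusted p = 0.0539 to 0.0764), and under quantile scaling the sign turned (-0.02, adjusted p = 0.805). The fit without the 5 pools called 7 of 9 (35.1% of all genes), with Fth1 at 0.64 and Ftl1 at 0.13 (adjusted p = 0.0437). It also called Tfrc (0.91), Slc40a1 (0.67), Slc25a37 (0.41), Slc25a38 (0.75) and Ireb2 (-0.24). Against Idh2R140Q/+, 1 of 9 was called in Tet2-/- (9.54% of all genes), Ftl1 at 0.26 ± 0.05 (SE; adjusted p = 0.0143). That call was lost under median-of-ratios scaling (0.0795), quantile scaling (0.186) and in the fit of the 2 groups (0.151). Without the 5 pools 2 of 9 were called (23.9% of all genes), Ftl1 at 0.22 (adjusted p = 0.00474) and Slc25a37 at 0.64 (0.00114). Against Idh1R132H/+, 3 of 9 were called in Tet2-/- (13.5% of all genes). Ftl1 was higher by 0.28 ± 0.05 (SE; adjusted p = 0.0045) and Hmox1 by 0.74 ± 0.23 (adjusted p = 0.0409), and Slc11a2 was lower by -0.64 ± 0.17 (adjusted p = 0.0241). The Hmox1 call was lost without Idh1R132H/+ pool 2, 3 or 4 or Tet2-/- pool 2, 3 or 4 (adjusted p = 0.0635 to 0.103), and without the 5 pools together (0.66, adjusted p = 0.0681). The Slc11a2 call was lost without Idh1R132H/+ pool 1, 3 or 4 (0.0511 to 0.0633) and in the fit of the 2 groups (0.115). The Ftl1 call was lost under median-of-ratios scaling (0.0831), quantile scaling (0.0522) and in the fit of the 2 groups (0.0515). Without the 5 pools 3 of 9 were called (32.7% of all genes), Ftl1 at 0.24, Slc25a37 at 0.62 and Slc11a2 at -0.41.

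Of 95 further iron and haem genes listed by role, 77 were tested. In Idh2R172K/+ 3 were called higher and 10 lower than in WT (16.9% of the list, beside 15.4% of all genes). In Tet2-/- 1 was called higher and 8 lower (11.7%, beside 7.05%). Without the 5 pools 24 were called in Idh2R172K/+ (31.2%, beside 32.7% of all genes) and 22 in Tet2-/- (28.6%, beside 31.8%). None was called in Idh1R132H/+ or Idh2R140Q/+.

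Among uptake and reduction genes, 1 of 8 tested was called in Idh2R172K/+, Trf, which encodes transferrin, at -0.79 ± 0.11 (SE; limma adjusted p = 6.02e-05). Among sensing and ferritin turnover genes 2 of 9 were called. Ncoa4, the receptor that delivers ferritin to lysosomes, was higher at 152.5 ± 8.39 against 101 ± 9.34 TPM (SD, n = 4; difference 0.59, adjusted p = 0.0169; 0.0505 without WT pool 3). Pcbp3, of the poly(rC)-binding family that includes iron chaperones, was lower (-0.61, adjusted p = 0.00798). Among haem transport and breakdown genes 3 of 11 were called lower: Blvrb, a biliverdin reductase (-0.99), Lrp1, a receptor for haemopexin-bound haem (-1.01), and Cd163, the haemoglobin scavenger receptor of macrophages (-0.65). Lrp1 averaged 1.01 ± 0.2 TPM in Idh2R172K/+ and 3.08 ± 0.749 TPM in WT (SD, n = 4), near the filter of 1 TPM. The Cd163 call was lost without WT pool 2 or 4 or Idh2R172K/+ pool 1 or 3 (adjusted p = 0.054 to 0.079). Among haem synthesis genes 5 of 11 were called lower, among them Alad (-0.93), Alas1, the rate-limiting enzyme outside red cells (-1.09), and Tmem14c (-0.49). Of 23 mitochondrial iron and iron-sulphur cluster genes 1 was called, Cisd3 (0.43, adjusted p = 0.0027), and of 4 export and systemic control genes 1, Id1, a BMP target (1.21, adjusted p = 0.0101). Id1 was not called under quantile scaling (adjusted p = 0.0532). Cisd3 was not called under median-of-ratios scaling (adjusted p = 0.124), quantile scaling (0.228) or limma-voom on the recovered reads (0.0672).

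The NRF2 pathway drives Hmox1 and both ferritin genes under oxidative stress. None of its 11 tested genes was called in Idh2R172K/+ (15.4% of all genes), and their median difference was 0.05. In Tet2-/- 1 of 11 was called (7.05% of all genes), Gsr, glutathione reductase (-0.75, adjusted p = 0.0498). The part of this pathway in the Fth1, Ftl1 and Hmox1 values was not tested. Other called genes in Tet2-/- included Steap3, an endosomal iron reductase (-0.52), the mitochondrial transporter Abcb10 (-0.71), the iron-sulphur assembly factor Iba57 (-0.55), the haem exporter Flvcr1 (-0.75), and the haem synthesis genes Cpox (-0.94) and Alas2, the red cell form of the rate-limiting enzyme (0.71). Alas2 kept its call when any single WT or Tet2-/- pool was left out but not in the fit of the 2 groups (adjusted p = 0.0624), and each of the other 8 called genes lost it without at least 3 single pools. The Alas2 level was 1.51 ± 0.152 TPM against 0.534 ± 0.0855 TPM in WT (SD, n = 4), near the filter of 1 TPM. WT was the lowest group: Alas2 averaged 1.03 TPM in Idh1R132H/+, 1.03 TPM in Idh2R140Q/+ and 0.982 TPM in Idh2R172K/+. Red cell markers, a list of 12 that includes Alas2, summed to 109 to 146 TPM in Tet2-/- and 70.4 to 110 TPM in WT. Of 11 tested, 5 were called higher and 3 lower, beside 7.05% of all genes called either way. The part of these markers in the Alas2 value was not tested.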

How the data were processed

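RNA sequencing of LSK cells was analysed in 20 libraries, 4 in each of 5 groups set by the genotype labels. The authors deposited TPM in 1 table; per the submitters' processing notes the tools were Trim Galore, STAR and featureCounts with mm10, and versions, annotation and strand setting are not given in the sources used here. Each column was assigned by the mutation and number in its name; those of Idh2R140Q carry a prefix naming Idh1 with that mutation. Symbols, loci and exon lengths came from GENCODE M21 (45229 of 46078 IDs matched). Depth was read from TPM times exon length (90.0 to 91.1% of values up to 30 reads were whole within 0.1 reads).

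Differences were tested with limma (3.58.1, R 4.3.3), with an intensity trend, on log2(TPM + 1) in 1 fit of 5 groups. The 2-sided p-values were adjusted by the Benjamini-Hochberg method over 14176 genes averaging 1 TPM or more, and genes were called at 0.05. The script was checked on simulated data. Tables used Python 3.11.15, pandas 2.3.3 and numpy 2.4.6, figures matplotlib 3.10.9. Alternatives were 0.1 in place of 1 as the pseudocount, all genes unfiltered, genes averaging 5 TPM or more, 3 scalings, a fit of the 2 groups, a replicate block, library weights, leaving out pools, and limma-voom on the recovered reads (chosen after seeing the data).

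Numbers were taken to pair samples where all 4 same-numbered pools correlated over 0.1 in their deviations: WT with Idh1R132H (0.176 to 0.489), Idh1R132H with Idh2R140Q (0.147 to 0.538), Idh1R132H with Idh2R172K (0.167 to 0.478), and Idh2R140Q with Idh2R172K (0.213 to 0.534). This rests on the data, not on a label. The block itself was fitted over all 20 libraries, including groups not paired by this rule. No label says that the pools were separate experiments, so p-values measure the spread between these pools. The 9 genes and all lists were chosen with earlier results of these data known. Named were the 9 genes, up to 4 called genes with the smallest p per role list, and the 5 most correlated genes for Fth1, Tfrc, Hmox1 and Slc40a1. Some genes this rule names are not reported here.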

Additional observations from a re-analysis of the deposited data

Results flagged for a closer look

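In 45 sets of 4 pools (9 genes in 5 groups), 5 had a highest or lowest pool far enough from the nearest other pool, relative to the whole range, to pass the 95% limit of Dixon's test. Chance gives about 1 in 20. Fth1 was lowest in Idh2R172K/+ pool 4 (2219 TPM). Slc25a37 was highest in pool 4 of Idh1R132H/+ (21.3 TPM) and of Idh2R140Q/+ (24.0 TPM), and Ireb2 in pool 4 of Idh2R172K/+ (53.2 TPM). Hmox1 was highest in pool 1 of Idh1R132H/+ (38.8 TPM). Of the 5 sets, 4 stood out through a pool numbered 4, and Idh2R172K/+ pool 4 did so for both Fth1 and Ireb2.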

How the results depend on the processing

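Fth1 was called lower in Idh2R172K/+ against WT, Idh2R140Q/+, Idh1R132H/+ and Tet2-/- in 19 of 19 alternatives each. For the number of the 9 genes called, alternatives gave the following. Idh2R172K/+ against WT went from 1 to 4 under median-of-ratios scaling, quantile scaling or the replicate block, 5 with library weights, 6 without the number 4 pools and Tet2-/- pool 2, and 3 with limma-voom. Tet2-/- against WT went from 1 to 0 with no filter or the fit of the 2 groups, 2 with the block or without those 5 pools, 3 with weights, and 0 to 1 leaving out single pools. Idh2R172K/+ against Idh2R140Q/+ went from 1 to 3 under either scaling, 4 with the block, weights or without the 5 pools, 2 with limma-voom, and 1 to 2 leaving out single pools. Idh2R172K/+ against Idh1R132H/+ went from 3 to 5 under median-of-ratios scaling, the block or without the 5 pools, 6 under quantile scaling or weights, and 1 to 3 leaving out single pools. Tet2-/- against Idh2R172K/+ went from 2 to 1 with no filter or the 2 groups, 4 at a mean of at least 5 TPM or median-of-ratios scaling, 5 under quantile scaling or weights, 6 with the block or limma-voom, 7 without the 5 pools, and 1 to 3 leaving out single pools; the Ftl1 difference there reversed to -0.02 under quantile scaling. Tet2-/- against Idh2R140Q/+ went from 1 to 2 under median-of-ratios scaling (Slc11a2 and Ireb2, with Ftl1 lost), weights, limma-voom or without the 5 pools, 0 with the 2 groups, 5 with the block, and 1 to 2 leaving out single pools. Tet2-/- against Idh1R132H/+ went from 3 to 0 with the 2 groups, 5 with the block, and 1 to 3 leaving out single pools. The share of all genes called moved too over these settings, single pools aside. For Idh2R172K/+ it was 8.26 to 32.7% against WT, 5.61 to 20.3% against Idh2R140Q/+ and 6.91 to 32.2% against Idh1R132H/+. For Tet2-/- it was 0.317 to 36.9% against WT, 8.39 to 37.2% against Idh2R172K/+, 0.0282 to 23.9% against Idh2R140Q/+ and 3.87 to 43.3% against Idh1R132H/+. The cause of these shifts was not tested.

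The 13 other iron genes called in Idh2R172K/+ became 21 under median-of-ratios scaling, 22 under quantile scaling, 25 with weights and 24 without the 5 pools. The 9 in Tet2-/- became 2 with no filter, 16 under median-of-ratios scaling, 15 under quantile scaling, rescaling without the 20 most abundant genes, the block or limma-voom, 0 with the 2 groups, 33 with weights, 22 without the 5 pools, and 1 to 11 leaving out single pools. Tet2 in Tet2-/- reached 0.63 with weights, 0.63 without the 5 pools and 0.45 with limma-voom, all past the threshold.

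Over all genes, calls in Idh2R172K/+ went from 2177 to 1371 at 5 TPM, 4586 with weights and 4641 without the 5 pools. They were 2784 under median-of-ratios scaling and 2659 under quantile scaling. In Tet2-/- they went from 999 to 517 at 5 TPM, 2648 and 2492 under the scalings, 1836 after rescaling, 45 with the 2 groups, 2485 with the block, 5231 with weights, 4515 without the 5 pools and 2480 with limma-voom; without WT pool 1 they were 504, without WT pool 3 they were 266, and without Tet2-/- pool 4 they were 351. Main calls there split into 712 higher and 287 lower, median-of-ratios calls into 1135 and 1513. Of all same-numbered pairs, 22 of 40 correlated over 0.1, and 14 of 20 pools correlated best with their own number. In the 4 paired comparisons the block changed no call of the 9 genes other than those named in the report. Depth did not limit these genes, with at least 355 reads in every pool.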
